A study of Mus musculus with 8 samples.

Results

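The ligands of the TGF-beta superfamily were followed in livers of Fah-/- mice as 10 genes, namely Tgfb1, Tgfb2, Tgfb3, Inhba, Inhbb, Inhbc, Inhbe, Gdf15, Bmp2 and Bmp6. They were found by matching gene identifiers to these symbols, and make up 10 of the 22504 rows of the expression table. Of the 10, 7 passed a floor on low values (FPKM 1 or more in 4 or more of the 8 samples) that 10244 genes of the table passed, while Tgfb2, Tgfb3 and Inhba did not. FPKM is a fragment number scaled to transcript length and to the library total, so levels of different genes can be set side by side.

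All 8 mice were of strain 129S4 and lacked Fah, the last enzyme of tyrosine breakdown. Such mice stay healthy on NTBC, an inhibitor acting upstream in that pathway and given at 7.5 mg/L for maintenance, and their hepatocytes are injured when it is reduced or withdrawn. In moderate chronic liver injury (MCLI) the mice received 2.5% of that dose. C 8w denotes 8 weeks of MCLI (3 livers), C 8w + A 4w denotes 8 weeks of MCLI followed by 4 weeks without NTBC, which is severe acute liver injury or SALI and names the group here (3 livers), and C 12w denotes 12 weeks of MCLI (2 samples labelled as tumor tissue). The study asked how the severity of injury bears on hepatocyte senescence and on tumor formation. The tumor label belongs to C 12w alone, so tissue kind and length of MCLI cannot be told apart. The comparisons share samples, since each group enters 2 of them.

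Summed FPKM ranged from 324735 to 399342 per sample, and 9797 to 10658 genes reached an FPKM of 1. Read depth is unknown, because the table holds no counts and low values gave no common step. Most hepatocyte markers were abundant in every sample (summed FPKM without Alb from 9000.8 to 14077.8), but Serpina1e, which shares 34.6% of its 50-base windows with other genes, was at 0.114 to 1.06 FPKM in C 8w and C 12w and at 5.73 to 13.5 after SALI, and albumin itself was listed at 0 in the 3 C 8w and 2 C 12w samples and at 12945.6 to 16949.8 FPKM after SALI. Gapdh, a glycolytic enzyme of every cell, was at most 0.247 FPKM in the same 5 samples and at 68.2 to 99.9 after SALI. In all, 5 genes were at 0 in those 5 samples and at 10 FPKM or more in each SALI liver, and no ligand was among them. The SALI samples also carry another series of sample codes than the other 5, so code series and group cannot be told apart. The extraction text in the labels speaks of retinas, yet Rcvrn and Crx, markers of photoreceptors, were at 0 in all 8 samples.

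Ligands of this superfamily are secreted dimers, and most bind paired type I and type II serine/threonine kinase receptors. Gdf15, whose receptor is Gfral, is an exception. TGF-betas and activins signal through Smad2 and Smad3, and bone morphogenetic proteins (BMPs) through Smad1, Smad5 and Smad9, each with the shared partner Smad4. In liver, TGF-beta is best known for halting hepatocyte division and for driving matrix production by stellate cells. The activin beta-C and beta-E subunits are made by hepatocytes. BMP6 and BMP2 from sinusoidal endothelium set the level of hepcidin, the hormone that limits iron uptake. In whole tissue, fewer cells of a type and less RNA per cell cannot be told apart.

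Inhbe and Inhbc, which encode the activin beta-E and beta-C subunits, are neighbours on chromosome 10 with 0 protein-coding genes between them, and their promoters are shown because both genes had their highest values in C 12w, in unequal measure. The sequences are the 250 bases before each start site from RefSeq (GRCm38.p6, minus strand, chr10:127351849-127352098 for Inhbe and chr10:127370549-127370798 for Inhbc). Capitals mark TTGCATCA, a composite element for C/EBP and ATF factors.
Inhbe: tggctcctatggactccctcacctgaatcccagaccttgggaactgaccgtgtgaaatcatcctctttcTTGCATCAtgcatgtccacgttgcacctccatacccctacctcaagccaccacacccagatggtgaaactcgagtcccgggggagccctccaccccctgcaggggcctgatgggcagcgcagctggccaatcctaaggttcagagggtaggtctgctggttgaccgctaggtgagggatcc
Inhbc: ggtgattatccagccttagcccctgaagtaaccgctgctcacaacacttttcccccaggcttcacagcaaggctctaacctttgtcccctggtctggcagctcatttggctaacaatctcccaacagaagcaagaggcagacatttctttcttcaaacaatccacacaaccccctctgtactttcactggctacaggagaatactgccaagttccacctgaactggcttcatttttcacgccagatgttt
On both strands of the 300-base promoters (250 bases before the start site and 50 after), TTGCATCA was found in Inhbe, at position -181 counted from the start site, and in no other of the 8 ligand genes with a promoter in the table. Over all 32851 promoters 0.895% held it. The sequence TGACG, part of a cAMP response element, was found in Tgfb2 and in 20.8% of all promoters. None of the 8 genes held TGACGTCA (1.79% of all promoters), the Smad palindrome GTCTAGAC (0.213%), GGCGCC (11.9%) or the AP-1 element TGANTCA (7.81%). The Inhbe promoter contained 6 CpG and the Inhbc promoter 4, against a median of 7, while the Inhbb promoter contained 23.

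Within C 8w the order by mean FPKM was Gdf15, Inhbc, Bmp2, Bmp6, Tgfb1, Inhbe and Inhbb, followed by Tgfb3, Tgfb2 and Inhba below 1 FPKM. Ranges of the mice overlapped between Gdf15 and Inhbc and between Tgfb1 and Inhbe, but not between the other neighbours down to Tgfb2. After SALI, Gdf15 again had the highest mean, Bmp6 came next with a range that overlapped it, and Inhbb, Bmp2, Inhbc and Tgfb1 followed with ranges that overlapped from one to the next. In C 12w, Inhbe led at a mean of 24.4 FPKM, above 81.7% of kept genes, whereas in C 8w it had been above 23% of them. Inhbc, Gdf15 and Bmp6 came after it with overlapping ranges.

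**Figure D1:**
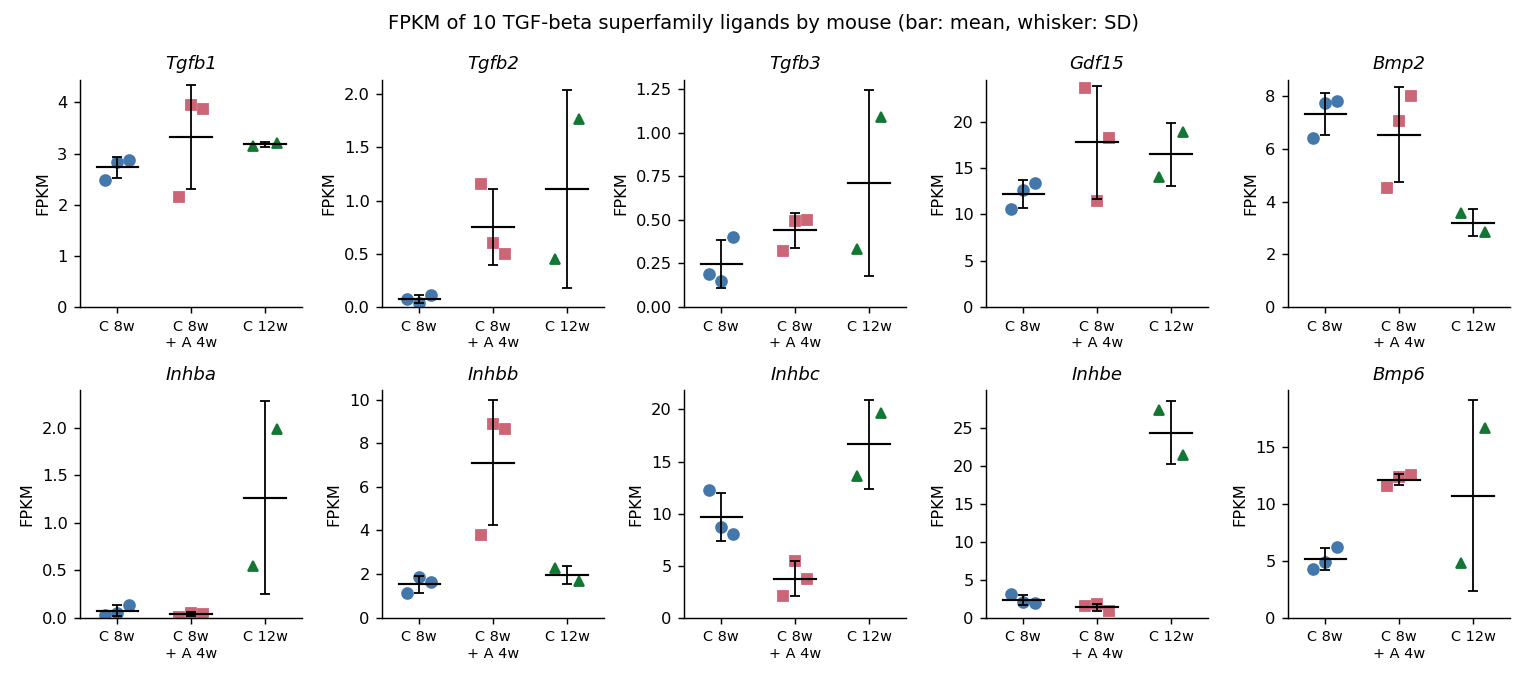
FPKM (vertical axis, linear from 0) of each of the 10 ligands in every mouse, grouped as C 8w (circles), C 8w + A 4w (squares) and C 12w (triangles), with the mean (long bar) and SD (whisker). Inhbb stands apart in C 8w + A 4w and Inhbe in C 12w, and mouse 3 of C 12w has the highest Tgfb2, Tgfb3, Inhba, Inhbc and Bmp6 of all 8 samples.

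Differences were fitted with limma on log2(FPKM + 1), a scale that understates changes of low genes, and a ligand was called at an adjusted p under 0.05 over all kept genes. In SALI against C 8w, 3 of the 7 kept ligands were called, against a background of 39.4% of all genes. Inhbb and Bmp6 were higher, as were 25.3% of all genes, and Inhbc was lower, as were 14.1%. In C 12w against C 8w, 2 of 7 were called (background 19.2%), with Inhbe higher (12.2% of all genes) and Bmp2 lower (6.98%). In SALI against C 12w, 4 of 7 were called (background 32.8%), with Inhbb and Bmp2 higher (17.4%) and Inhbc and Inhbe lower (15.4%). These counts rest on 7 genes, and nothing particular to the ligands is read from them. The median log2 difference of the kept ligands was 0.18, 0.40 and 0.06 in the 3 comparisons, against 0.12, 0.12 and 0.01 over all genes. Rescaling by median ratios brought the median of all genes to 0.01, 0.02 and -0.01, and moved the share of called genes that were higher from 64.2% to 50.2%, from 63.6% to 48.8% and from 53.1% to 50.2%.

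**Figure D2:**
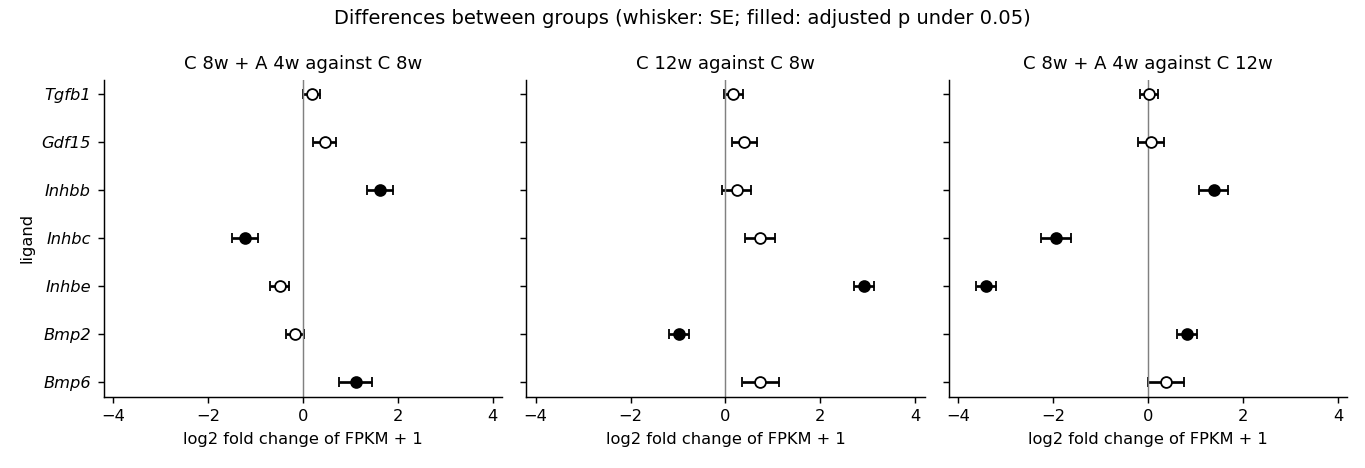
Difference between groups for the 7 kept ligands as log2 fold change of FPKM + 1 (horizontal axis), 1 panel per comparison, with the SE as whisker and filled points for an adjusted p under 0.05. Inhbe lies at 2.92 in C 12w against C 8w and at -3.41 in C 8w + A 4w against C 12w, farther from 0 than any other ligand.

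In each comparison the kept ligand with the largest log2 difference was an activin subunit gene. Inhbe, whose product is a liver-secreted hepatokine, was at 3.16, 2.02 and 1.95 FPKM in C 8w, at 1.57, 1.76 and 0.884 after SALI, and at 27.4 and 21.5 in C 12w. Both C 12w samples stood far above all 6 others, and the other groups overlapped neither with them nor with each other. The C 12w mean of 24.4 ± 4.17 (SD, n = 2) was 10.3 times that of C 8w (2.38 ± 0.678, n = 3), a log2 difference of 2.92 (SE 0.22, adjusted p = 0.000523). Against SALI it was 17.4 times as high (log2 difference of SALI against C 12w -3.41, SE 0.22, adjusted p = 1.25e-05). The lower level after SALI than in C 8w, -0.49 (SE 0.19) on the log2 scale, missed the threshold at an adjusted p of 0.0743, and passed it with quantile normalization (0.0412).

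Inhbc, whose product pairs with other beta subunits and is made mainly in liver, was at 12.3, 8.72 and 8.00 FPKM in C 8w, at 2.05, 5.41 and 3.72 after SALI and at 13.6 and 19.6 in C 12w. No group overlapped another, with SALI lowest and C 12w highest. Inhbc fell in SALI against C 8w by 1.22 on the log2 scale (SE 0.28, adjusted p = 0.00939), the C 8w mean being 2.59 times as high. Against C 12w it was lower by a log2 difference of -1.94 (SE 0.31, adjusted p = 0.00233). The difference between C 12w and C 8w, 0.72 (SE 0.31), did not pass at an adjusted p of 0.126. Of the 50-base windows in Inhbc transcripts, 12.2% also occur in Gm47200 on the opposite strand, and no source states that strand was used in counting, so reads of that stretch cannot be assigned.

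Inhbb, which encodes the beta-B subunit of activin B, went the other way. It was at 1.11, 1.86 and 1.62 FPKM in C 8w, at 3.796, 8.89 and 8.64 after SALI and at 2.26 and 1.67 in C 12w. All 3 SALI livers were above the other 5 samples, and C 8w and C 12w overlapped. Its mean of 7.11 ± 2.87 (SD, n = 3) after SALI was 4.65 times that of C 8w (log2 difference 1.62, SE 0.27, adjusted p = 0.00236) and 3.61 times that of C 12w (1.38, SE 0.31, adjusted p = 0.00971). C 12w and C 8w differed by 0.24 (SE 0.31, adjusted p = 0.602). None of its windows occurs in another gene.

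Inhba, the beta-A subunit of activin A, was nearly silent in both groups outside C 12w, from 0.0276 to 0.136 FPKM in C 8w and from 0.0129 to 0.0522 after SALI. In C 12w it was at 0.547 in mouse 2 and 1.98 in mouse 3, both above all other samples. It did not pass the floor. In a fit of 17762 genes with no floor, where 24.3%, 10.2% and 21.8% of genes were called in the 3 comparisons, its log2 difference between C 12w and C 8w was 1.00 (SE 0.24, adjusted p = 0.0462), and that between SALI and C 12w -1.05 (SE 0.24, adjusted p = 0.0227).

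As a share of the 4 beta subunit genes together, Inhbc made up 74.1%, 68.9% and 68.3% in C 8w. In SALI, Inhbb led in each liver at 51.1%, 55.2% and 65%. In C 12w, Inhbe took the lead with 62.5% in mouse 2 and 48% in mouse 3. The summed level of the 4 genes was 16.6, 12.7 and 11.7 FPKM in C 8w, 7.43, 16.1 and 13.3 after SALI, and 43.8 and 44.8 in C 12w. The leading subunit gene thus differed in all 3 groups, while the sums of C 8w and SALI overlapped. Inhbe relative to Inhbc was 0.232 to 0.257 in C 8w, 0.238 to 0.767 after SALI, and 2.01 and 1.09 in C 12w. Inha, the alpha subunit that turns beta subunits into inhibins, was at most 0.125 FPKM in any sample.

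**Figure D3:**
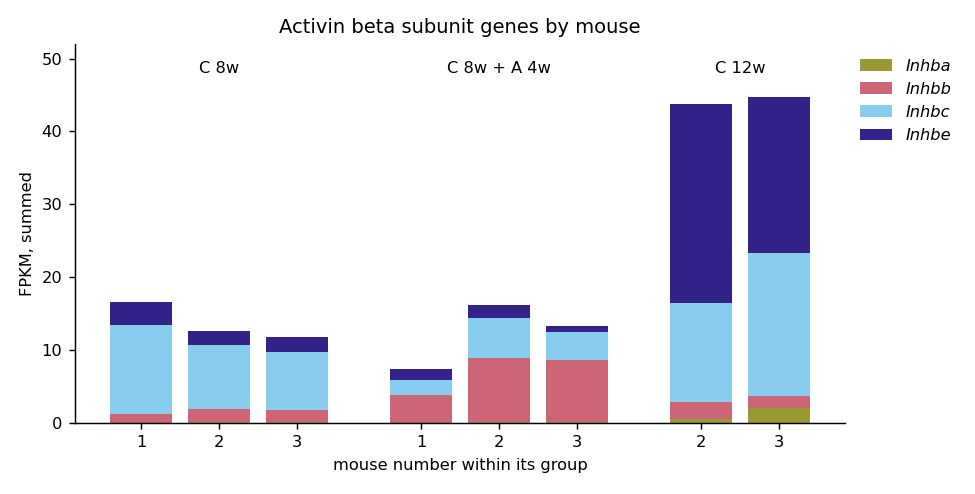
FPKM of the 4 activin beta subunit genes stacked for each of the 8 mice (vertical axis, linear from 0), numbered within their groups. Inhbc is the largest piece in C 8w, Inhbb in C 8w + A 4w and Inhbe in C 12w, and the 2 C 12w bars reach 43.8 and 44.8 FPKM.

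None of the 3 TGF-beta genes passed the test in any comparison. Tgfb1, the main profibrotic and growth-arresting form in liver, was at 2.49, 2.83 and 2.87 FPKM in C 8w, at 2.14, 3.94 and 3.86 after SALI and at 3.15 and 3.21 in C 12w. SALI mouse 1 was the lowest of all 8 samples and its 2 group mates were the highest. The log2 differences were 0.18 (SE 0.17, adjusted p = 0.435), 0.17 (SE 0.20, adjusted p = 0.565) and 0.02 (SE 0.20, adjusted p = 0.958) in the 3 comparisons, and without that mouse the difference of SALI from C 8w was 0.40 (adjusted p = 0.0315). Tgfb2 was at most 0.116 FPKM in every C 8w liver, at 1.16, 0.600 and 0.4996 after SALI, and at 0.455 and 1.76 in C 12w. Every later sample was above C 8w, but in the fit with no floor the adjusted p was 0.0879 for SALI and 0.0866 for C 12w. Tgfb3 ranged from 0.149 to 0.403 FPKM in C 8w, 0.323 to 0.499 after SALI and 0.335 to 1.09 in C 12w, with overlap between all groups and adjusted p of 0.427, 0.196 and 0.469. It shares 8.79% of its windows with other genes.

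Gdf15, a stress hormone whose receptor Gfral is found in the hindbrain and was at 0 in all 8 samples, was the most abundant ligand in C 8w. It was at 10.6, 12.6 and 13.4 FPKM in C 8w, at 23.6, 11.5 and 18.3 after SALI, and at 14.1 and 18.9 in C 12w. Both C 12w samples were above C 8w, whereas SALI mouse 2 fell within the range of C 8w. The log2 differences were 0.46 (SE 0.24, adjusted p = 0.159), 0.40 (SE 0.27, adjusted p = 0.305) and 0.06 (SE 0.27, adjusted p = 0.88). Without SALI mouse 2, the difference from C 8w was 0.73 (adjusted p = 0.0185).

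Of the BMP genes, Bmp6 was at 4.32, 4.88 and 6.21 FPKM in C 8w, at 11.6, 12.4 and 12.5 after SALI and at 4.79 and 16.7 in C 12w. The SALI livers lay close together and above C 8w, while the C 12w samples were the one within C 8w and the other above all else. Bmp6 rose 2.37-fold in mean after SALI (log2 difference 1.11, SE 0.34, adjusted p = 0.0325). Leaving out any single C 8w or SALI liver ended that call, with adjusted p from 0.0546 to 0.109 at log2 differences of 1.01 to 1.23. With only those groups in the fit the adjusted p was 0.000241, and without mouse 2 or mouse 3 of C 12w, whose Bmp6 values were far apart, it was 0.000235 and 0.000238. Against C 8w the C 12w difference was 0.73 (SE 0.39, adjusted p = 0.197), which became 1.54 without mouse 2 of C 12w (adjusted p = 0.0008) and -0.07 without mouse 3. Of its windows 4.55% occur on the opposite strand in Txndc5, which stood at 46.8 to 68.1 FPKM over the 8 samples.

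Bmp2 was at 6.41, 7.75 and 7.83 FPKM in C 8w, at 4.54, 7.07 and 8.02 after SALI and at 3.57 and 2.84 in C 12w. Both C 12w samples were below the other 6, which overlapped. Bmp2 was lower in C 12w than in C 8w, where its mean was 2.29 times as high (log2 difference -0.99, SE 0.21, adjusted p = 0.0165), and higher after SALI than in C 12w (0.82, SE 0.21, adjusted p = 0.0176). The first call was lost without mouse 2 or mouse 3 of C 8w or mouse 3 of C 12w (adjusted p = 0.0533, 0.0604 and 0.0583, at log2 differences of -0.95, -0.94 and -0.86), and the other without SALI mouse 3 or mouse 3 of C 12w (adjusted p = 0.0536 and 0.0735, at 0.67 and 0.69). SALI and C 8w differed by -0.17 (SE 0.19, adjusted p = 0.498). Bmp6 relative to Bmp2 was 0.63 to 0.793 in C 8w, 1.56 to 2.56 after SALI and 1.34 and 5.87 in C 12w, so that every later sample was above C 8w.

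Markers of sinusoidal endothelium, the main source of Bmp2 and Bmp6 in healthy liver, are given beside these values. Their summed level (9 genes) was 69.6 to 76.6 FPKM in C 8w, 35.3 to 54.8 after SALI and 33.7 to 42.9 in C 12w. In SALI against C 8w, 5 of the 9 were lower (14.1% of all genes) and 1, Lyve1 (1.18, adjusted p = 0.0177), was higher (25.3%). In C 12w against C 8w, 6 of the 9 were lower (6.98%). In SALI against C 12w, where Bmp2 was higher, 2 of the 9 were higher (17.4%), namely Oit3 (0.57, adjusted p = 0.0171) and Flt4 (0.68, adjusted p = 0.0435), and 0 were lower (15.4%). Myofibroblast markers (8 genes) summed to 7.99 to 16.5 FPKM in C 8w, 3.29 to 14.5 after SALI, and 21.6 and 52.7 in C 12w. In C 12w, 2 of the 4 kept, Col1a2 and Col3a1, were higher than in C 8w (12.2% of all genes). After SALI, 1 of the 4, Col3a1, was lower than in C 8w (-1.095, adjusted p = 0.0349, 14.1% of all genes). The same 2 genes were lower after SALI than in C 12w (15.4%). Cholangiocyte markers (6 genes) summed to 9.51 to 15.2, to 26.3 to 32.8, and to 28.2 and 338.6 FPKM in the same order, and of the 4 kept 1 was higher after SALI (25.3% of all genes) and 3 in C 12w (12.2%), both against C 8w. Spp1 made up 310.7 of the 338.6 FPKM, and most of the sum in every other sample, at 8.26 to 23.6 FPKM. The other members called in C 12w against C 8w were Epcam, at 1.36 and 5.82 FPKM against at most 0.888 (adjusted p = 0.0471), and Sox9, at 3.61 and 19.9 FPKM against at most 0.959 (adjusted p = 0.0173). Both were below 1 FPKM in every C 8w liver and passed the floor only through the later samples, so the count of called members is no support. Krt7, below the floor, was at 0.165 and 1.17 FPKM against at most 0.148, Krt19 at 0.798 and 1.06 was within the range of C 8w (0.354 to 1.43), and Cftr was at most 0.0396 in all 8 samples. The highest value of both lists was in mouse 3 of C 12w, the sample with the highest Tgfb2, Tgfb3, Inhba, Inhbc and Bmp6. Kupffer cell markers (6 genes) summed to 107.1 to 134.4 FPKM in C 8w, to 69.8 to 275.8 after SALI, and to 100.4 and 53.7 in C 12w, so that SALI mouse 2 was above every other sample while its group mates and both C 12w samples were below C 8w. No adjusted p of the 6 was under 0.05. The part of these cell types in the ligand values was not tested.

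**Figure D4:**
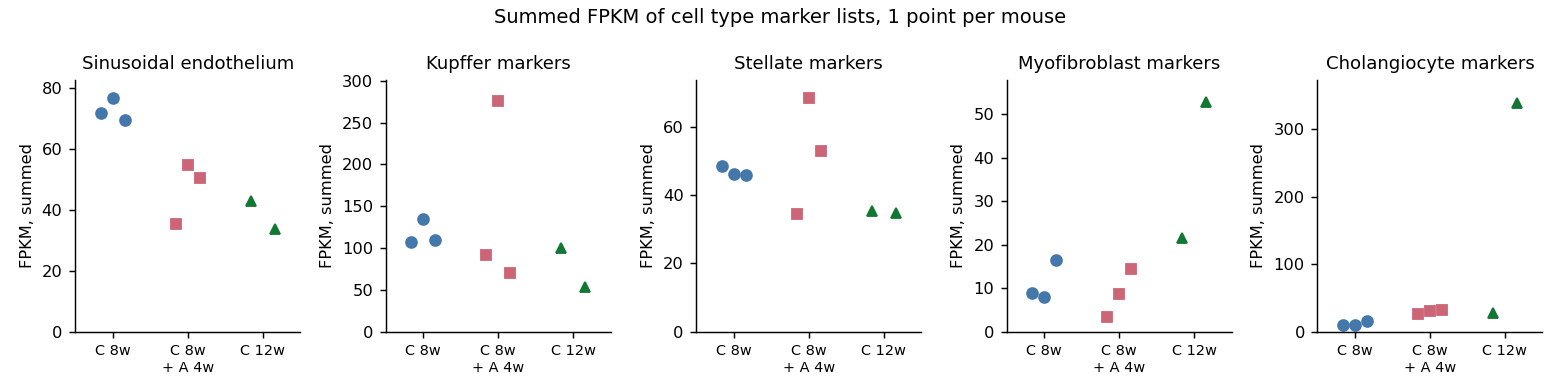
Summed FPKM of marker lists for 5 liver cell types (vertical axes, linear from 0), 1 point per mouse, with C 8w as circles, C 8w + A 4w as squares and C 12w as triangles. The sum of the sinusoidal endothelium markers is lower in both later groups (at most 54.8 FPKM) than in C 8w (at least 69.6). The highest myofibroblast and cholangiocyte sums belong to 1 C 12w sample.

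The other genes of the pathway were taken from lists of receptors, Smads, activators, inhibitors and targets. Their counts are read against the shares of all genes called in the same direction, which were 25.3% higher and 14.1% lower in SALI against C 8w, 12.2% and 6.98% in C 12w against C 8w, and 17.4% and 15.4% in SALI against C 12w, and the lean towards higher calls depended on the scaling as given above. The lists are short, and nothing particular to them is read from the counts. Of 23 further ligands 5 were kept. Bmp8b (1.82, SE 0.33, adjusted p = 0.00334) and Gdf10 (0.74, SE 0.11, adjusted p = 0.0012) were higher after SALI than in C 8w and none was lower, and Bmp8b shares 10.3% of its windows with other genes. Bmp8b, Bambi and Pmepa1 were below 1 FPKM in every C 8w liver and passed the floor only through the later samples, where they were higher, so the floor bears on their differences from C 8w and their calls are no support for the counts of their lists. Gdf10 and Bmp10 likewise were below 1 FPKM in both C 12w samples. Both passed the floor only through the SALI livers, where their means were highest. Fstl1, of the inhibitor list, passed it only through the C 12w samples, where its mean was highest. The floor thus bears on their differences between those groups and the others, and these calls are no support for the counts of their lists. Gdf10 (-0.45, SE 0.12, adjusted p = 0.0352) and Gdf2 (-0.61, SE 0.17, adjusted p = 0.0385), the latter a ligand of the endothelial receptor pathway that Acvrl1 and Eng serve, were lower in C 12w with C 8w as the reference, and none was higher. Gdf2, Gdf10 and Bmp10 were higher after SALI than in C 12w.

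Receptor genes were higher after SALI than in C 8w for 5 of the 11 kept (background 25.3%), namely Tgfbr1, Tgfbr2, Acvr1, Acvr1b and Bmpr2, and 1, Eng, was lower (14.1%). Tgfbr2, the type II receptor that binds TGF-beta first, was at 21.2, 23.7 and 22.8 FPKM in C 8w, at 34.0, 46.1 and 38.0 after SALI and at 21.7 and 16.1 in C 12w. It was thus higher after SALI than in either other group, by 0.77 (SE 0.15, adjusted p = 0.00503) and 1.03 (SE 0.17, adjusted p = 0.00271) on the log2 scale. Acvr1b, a type I receptor for activins, was also higher than in C 12w (0.78, SE 0.12, adjusted p = 0.00159). Compared with C 8w, 1 receptor gene was higher in C 12w (background 12.2%), Tgfbr1 (0.68, SE 0.16, adjusted p = 0.021), and 2 were lower (6.98%), Eng (-0.90, SE 0.16, adjusted p = 0.00981) and Tgfbr3 (-0.59, SE 0.16, adjusted p = 0.0339). Eng encodes endoglin, an endothelial co-receptor, and was lower in the same 2 comparisons as most of the endothelial marker list. Of that list, Lyve1 was higher after SALI than in C 8w. Acvrl1, below the floor, had means of 0.876, 0.754 and 0.871 FPKM in C 8w, SALI and C 12w, with overlap between all groups. The part of endothelial cells in the Eng level was not tested.

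All 14 genes of the Smad list, which also holds Smad regulators, were kept. Of these, 5 were higher and 0 lower in SALI against C 8w (Smad1, Smad2, Smurf1, Skil and Tgif1, against 25.3% and 14.1% of all genes), and 3 were higher and 0 lower in C 12w against C 8w (Smad2, Skil and Tgif1, against 12.2% and 6.98%). Between SALI and C 12w, Smurf1 was higher (0.59, SE 0.13, adjusted p = 0.00962) and Tgif1 lower (-0.57, SE 0.17, adjusted p = 0.0308). Of the 16 genes of latency and activation 7 were kept. Lrrc32, which tethers latent TGF-beta at the cell surface, rose after SALI (0.99, SE 0.17, adjusted p = 0.0029), as did the integrin gene Itgav (0.53, SE 0.13, adjusted p = 0.0145), and the protease gene Bmp1 fell (-0.67, SE 0.14, adjusted p = 0.00702). Of this list, only Itgav was called in C 12w against C 8w (0.75, SE 0.15, adjusted p = 0.0139). Relative to C 12w, Lrrc32 after SALI was higher and Bmp1 and Ltbp4 were lower.

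Of 17 known TGF-beta target genes 12 were kept, and 5 were higher and 0 lower in SALI against C 8w (25.3% and 14.1% of all genes). Cdkn2b, a cell cycle inhibitor of the senescence program, was at 2.62, 2.51 and 5.07 FPKM in C 8w, at 10.8, 14.9 and 12.3 after SALI and at 8.06 and 6.73 in C 12w. Its log2 difference after SALI was 1.67 (SE 0.22, adjusted p = 0.000669). Skil (1.29, SE 0.18, adjusted p = 0.000864), Tgif1 (0.64, SE 0.15, adjusted p = 0.0106) and Pmepa1 also rose. Skil and Tgif1 are repressors within the pathway and belong to the Smad list too, so their calls enter the counts of both lists. The groups of Cdkn2b did not overlap, with C 8w lowest, though its difference between SALI and C 12w did not pass (0.70, SE 0.25, adjusted p = 0.0592).

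For C 12w against C 8w the target list had 5 genes higher and 0 lower (12.2% and 6.98% of all genes), now with Col1a2 (1.29, SE 0.35, adjusted p = 0.0361) beside Skil, Cdkn2b and Tgif1 (1.21, SE 0.17, adjusted p = 0.0038). Col1a2, a collagen chain, is also in the myofibroblast list. In SALI against C 12w, 1 of the 12 kept targets was higher (17.4% of all genes) and 2 were lower (15.4%). The lower ones were Col1a2 (-1.74, SE 0.35, adjusted p = 0.00636) and Tgif1. Tgfb1 itself did not pass the test in any of these comparisons.

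Among 12 BMP target genes 11 were kept, and the shares of all genes given above apply to their counts too. Id1 (0.85, SE 0.24, adjusted p = 0.0232), Id2 and Bambi (0.76, SE 0.14, adjusted p = 0.00377) were higher after SALI than in C 8w, and Hamp2 was lower (-3.91, SE 0.38, adjusted p = 0.000138). Hamp2 was at 37.3, 35.6 and 35.5 FPKM in C 8w, at 2.01, 1.62 and 0.924 after SALI and at 27.8 and 7.48 in C 12w. It is a near copy of Hamp, the hepcidin gene, with which 11.2% of its windows are shared, so its level is uncertain. In C 12w against C 8w, Id2 (1.03, SE 0.17, adjusted p = 0.00698) and Bambi (0.54, SE 0.16, adjusted p = 0.0454) were higher, and in SALI against C 12w, Hamp2 and Id2 were lower.

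Hamp, Hfe2, Pmepa1, Fst, Inha, Gfral, Bmp10, Acvr1, Acvrl1, Bmpr2, Smad1 and Smad2 lie outside the rule for named genes and were chosen after their values were seen. The same holds for Gapdh, Txndc5 and all cell type marker genes named singly. Hamp was at 1640.3, 1784.2 and 2048 FPKM in C 8w, at 2982.7, 2075 and 1640.7 after SALI and at 2701.6 and 680.9 in C 12w, with adjusted p of 0.688 and 0.58 against C 8w. Its groups overlapped throughout, unlike those of Bmp6 in C 8w and SALI. Hfe2, the BMP co-receptor hemojuvelin, ranged from 20.9 to 36.7 FPKM in C 8w and from 39.9 to 54.1 after SALI (log2 difference 0.70, SE 0.39, adjusted p = 0.187), and its C 12w values of 51.3 and 14.98 lay above and below all C 8w livers. Pmepa1, a feedback inhibitor of TGF-beta signals, was at 0.883, 0.951 and 0.988 FPKM in C 8w and at 1.40, 2.50 and 2.87 after SALI (0.72, SE 0.23, adjusted p = 0.0403). In C 12w Pmepa1 was at 1.33 and 3.06 FPKM, also above all C 8w livers (adjusted p = 0.104), and overlapped SALI.

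Of 14 inhibitor genes 7 were kept. Tmprss6, the hepatocyte protease that cleaves hemojuvelin and lowers hepcidin, was at 164.8, 141.9 and 132 FPKM in C 8w, at 43.2, 62.9 and 65.9 after SALI and at 124.3 and 88.6 in C 12w. All 3 groups were apart, and Tmprss6 fell after SALI by 1.35 on the log2 scale (SE 0.20, adjusted p = 0.00122) and was lower than in C 12w by a log2 difference of -0.89 (SE 0.22, adjusted p = 0.0172). Bambi, a decoy receptor, was the 1 inhibitor gene that rose in that comparison. In C 12w against C 8w, Fstl1 (1.03, SE 0.26, adjusted p = 0.0294) and Bambi were higher and Dcn, a matrix proteoglycan that binds TGF-beta, was lower (-0.71, SE 0.18, adjusted p = 0.0311). Dcn was higher after SALI than in C 12w (1.13, SE 0.18, adjusted p = 0.00253), and Fstl1 lower (-0.92, SE 0.26, adjusted p = 0.0279). Fst, follistatin, which binds activins, ranged from 1.85 to 3.28 FPKM in C 8w and from 3.02 to 3.89 after SALI, and was at 5.32 and 2.16 in C 12w, with overlap between all groups.

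**Figure D5:**
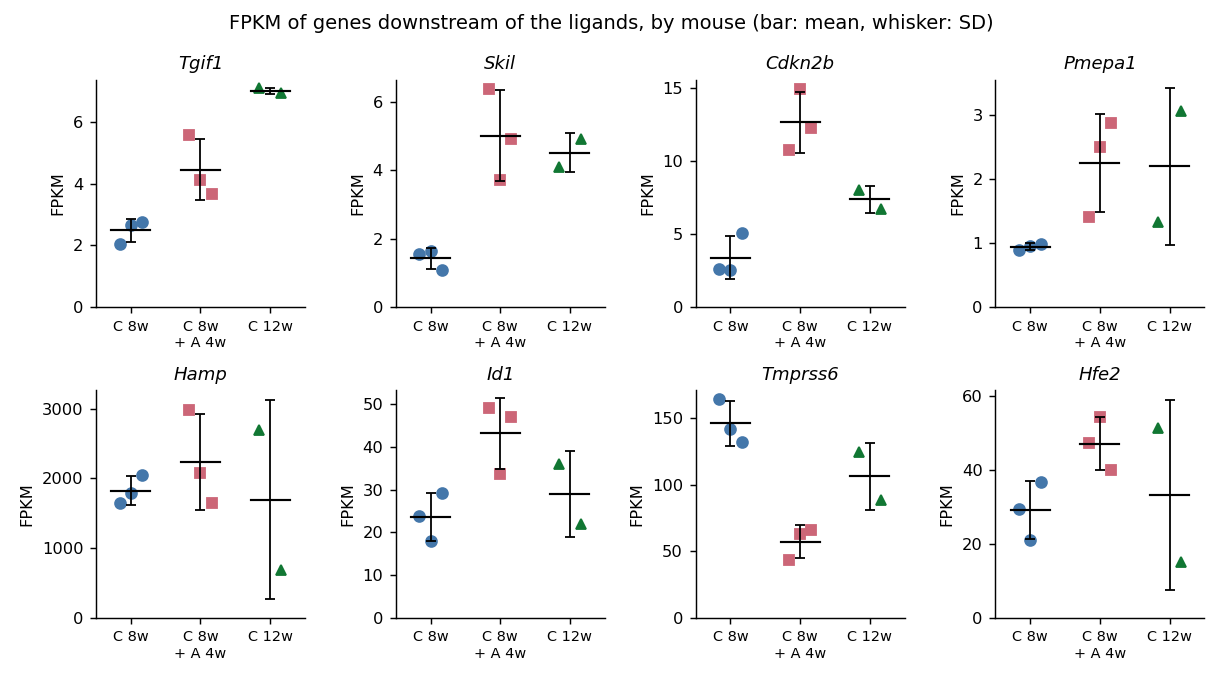
FPKM (vertical axis, linear from 0) of 4 TGF-beta targets and 4 genes of the BMP and hepcidin axis in every mouse, by group, with the mean (long bar) and SD (whisker). The points of Cdkn2b and Tmprss6 in C 8w + A 4w do not overlap those of either other group, in opposite directions, though the Cdkn2b difference from C 12w did not pass the test (adjusted p = 0.0592), while Hamp overlaps in all 3.

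The genes whose pattern over the 8 samples was most like that of each called ligand were listed by Pearson's r of log2(FPKM + 1), as a description across samples that share the group differences. For Inhbb these were Nat8f5 (r = 0.986), Sptlc2 (0.985) and Slc30a1 (0.983). For Inhbc they were Afm (0.995), Cyp2j5 (0.988) and B2m (0.988), and for Inhbe Lage3 (0.986), Mob3b (0.986) and 2610002M06Rik (0.985). Bmp2 was nearest to Ube3b (0.962), Serpinb1a (0.961) and Dap (0.960), and Bmp6 to Drosha (0.993), Slc35f2 (0.990) and Ythdc1 (0.986). Afm, which encodes the plasma protein afamin, was at 47.96, 37.0 and 31.2 FPKM in C 8w, at 4.26, 16.8 and 8.98 after SALI and at 78.0 and 110.6 in C 12w, in the same order of groups as Inhbc.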

How the data were processed

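RNA of 8 samples from Fah-/- mice was measured by RNA sequencing. The authors deposited 1 table of FPKM values per gene and sample. The submitters' processing notes name Bowtie 0.12.2 and the build mm8, and the counting program and any use of strand are not given in the sources used here. Identifiers of 22314 of 22504 rows matched a symbol. Genes reaching FPKM 1 in 4 or more samples were kept, and log2(FPKM + 1) of all 8 samples was fitted in 1 model with limma 3.58.1 (R 4.3.3, moderated variance with a trend). Two-sided p-values were adjusted by the Benjamini-Hochberg method over 10244 genes and called under 0.05. The fit was tested on simulated data. Windows of 50 bases from GENCODE M21 transcripts, on either strand, gave the share of each gene found in other genes. Transcripts are of a later build than mm8. Mice are separate animals, so p-values measure the spread between mice.

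The ligands and all gene lists were chosen with earlier results of these data known. Named genes were the 10 ligands, in each list and comparison the 2 called genes with the largest rise and the 2 with the largest fall among those whose groups did not overlap, and for each called ligand the 3 genes with the highest correlation. Alternatives were a pseudocount of 0.1, no floor or a floor of 0.5, median-ratio and quantile scaling, no variance trend, only the groups compared, only genes with at most 2% shared windows, each sample left out, and the replicate number as a block. The values of 1 gene of the target list are not reported here, and it is counted in that list.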

Additional observations from a re-analysis of the deposited data

How the results depend on the processing

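Of 351 values of single ligands under the alternatives, 320 kept their direction and their side of the threshold, 17 lost a call, 5 gained one and 9 turned direction. In every alternative that tested them, Inhbb and Inhbc stayed called in both comparisons with SALI, and Inhbe in both comparisons with C 12w (highest adjusted p = 0.0495, with crossed numbers as the block). In SALI against C 8w, 1 ligand was called instead of 3 with at most 2% shared windows, because Inhbc and Bmp6 were left out of that fit, and 2 to 3 when 1 sample was left out. In C 12w against C 8w, the fit with the replicate block could use only the 4 samples numbered 2 and 3, and called 1 ligand, Inhbe, instead of 2, with 252 genes called over the table instead of 1962, and Bmp2 at -1.07 (adjusted p = 0.0634). The same 4 samples without the block, an alternative chosen after seeing the data, also gave 1 ligand, with 12 genes called and Bmp2 at an adjusted p of 0.0756. Leaving out C 8w mouse 1 alone gave 676 genes. The fall from 1962 was thus present without the block, and the same 4 samples gave more calls with it (252) than without it (12). The differences between numbers 2 and 3 in C 8w and in C 12w did not go together over 10244 genes (r = -0.189). With 1 such difference per group, this cannot show whether samples of the same number share anything else. Crossed numbers, chosen after seeing the data, also called 1 ligand and 16 genes. Leaving out 1 sample gave 1 to 3 ligands there and 3 to 4 in SALI against C 12w.

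Uncalled values that turned direction were Bmp2 in SALI against C 8w without SALI mouse 1 (0.040, with -0.31 to 0.040 over the samples left out), and in C 12w against C 8w Tgfb1 with quantile normalization (-0.045) and Bmp6 without C 12w mouse 3 (-0.0735, and 1.54 without mouse 2). In SALI against C 12w they were Gdf15 with quantile normalization (-0.0020), without SALI mouse 1 (-0.16) and without C 12w mouse 2 (-0.14), Tgfb1 without SALI mouse 2 (-0.10) or mouse 3 (-0.08), with up to 0.23 for Tgfb1 and 0.33 for Gdf15 when another sample was left out, and Bmp6 without C 12w mouse 2 (-0.43), where Bmp6 was 1.19 (adjusted p = 0.00193) without C 12w mouse 3. Bmp6 after SALI was also not called with no floor (adjusted p = 0.0766) or quantile normalization (0.0578), stayed at 0.94 to 1.24 in every alternative that tested it, and had its lowest adjusted p (0.000235) without C 12w mouse 2, and Bmp2 in SALI against C 12w not with only those groups (0.0591). Over all genes, quantile normalization put the share of called genes that were higher at 47.1%, 46.9% and 49.9% in the 3 comparisons. Except where genes or samples were left out, the cause was not tested. C 12w has 2 samples, so leaving out 1 assumes that the other varies like the other groups.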

Other observations

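Marker lists of other cell types that a liver sample can hold gave these summed levels. Monocyte and macrophage markers (8 genes) were at 54.7 to 69.7 FPKM in C 8w, at 49.2 to 176.9 after SALI and at 83.4 and 92.4 in C 12w, and of the 4 kept none had an adjusted p under 0.05 with limma. Stellate cell markers (8 genes) were at 45.9 to 48.5, at 34.5 to 68.5, and at 35.2 and 34.6 FPKM, with 2 of the 8, Lrat and Hand2, higher after SALI than in C 12w (17.4% of all genes) and the other 6 not called. The highest monocyte, stellate and Kupffer sums after SALI belonged to mouse 2, which within its group had the highest Tgfb1, Inhba, Inhbb, Inhbc and Inhbe and the lowest Gdf15. The lowest monocyte, stellate, myofibroblast and endothelial sums belonged to SALI mouse 1, which had the lowest Tgfb1, Tgfb3, Inhba, Inhbb, Inhbc, Bmp2 and Bmp6 and the highest Tgfb2 and Gdf15 of the group. The part of these cell types in the ligand values was not tested. Markers of T and NK cells (at most 2.66 FPKM summed), B and plasma cells (at most 6.54), platelets (at most 2.40) and retina (at most 3.68, of which Gnat1 made up most) were low in all 8 samples. Of the 9 kept hepatocyte markers, Apoa1 and Serpina1e (at most 1.06 FPKM outside SALI, and kept only through samples above C 8w) were higher (25.3% of all genes) and Cps1, F9 and Cyp2e1 lower (14.1%) after SALI than in C 8w, and Cyp2e1 was the 1 called in C 12w against C 8w, where it was lower (6.98%). Between SALI and C 12w, Cyp2e1 and Serpina1e were higher (17.4%) and Cps1, F9 and Tat lower (15.4%) after SALI.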
